A study of Mus musculus with 10 samples.

Results

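The genes described here are 8 genes of the acute phase response, complement and blood clotting: Lbp, Hp, Hpx, C4b, Fga and F10, whose proteins hepatocytes secrete into plasma, and Il1rap and Stat3, which act in the signalling that switches such genes on. They were chosen by name, with earlier results of these data known, and every probe set annotated to them in the deposited table was taken. The counts of called probe sets below are thus descriptions and no test of these genes as a set. This gave 10 probe sets of 11868 tested, and 8 genes of 5928 with a probe set of their own. Il1rap and Stat3 have 2 probe sets each, and none of the 10 is annotated to several genes.

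Liver RNA of male mice in 5 groups was hybridised to the Affymetrix MG_U74Cv2 array, the third array of a set, so that most genes of these pathways are not analysed here. TgSREBP-1a mice overexpress human SREBP-1a and TgSREBP-2 mice human SREBP-2, each as the nuclear form that is transcriptionally active, and the SREBP wild type controls are their littermates. These 3 groups were 12 to 16 weeks old and had eaten, for 2 weeks, a diet high in protein and low in carbohydrate, which raises expression of the transgenes. Scap-/- mice lack SCAP in the liver through MX1-Cre, a recombinase that interferon switches on, in other tissues as well. They and their Scap wild type controls were 10 to 12 weeks old, ate Teklad chow and were given 4 doses of polyinosinic-polycytidylic acid (poly(I:C)) into the abdomen, with livers taken 14 days after the last dose. Poly(I:C), a mimic of viral RNA, is itself an inflammatory stimulus, and both Scap groups received it. Each group is 1 pool of RNA from 5 mice (20 µg), hybridised to 2 arrays. The p-values below thus compare pools: their error is that of repeated hybridisation, with no variation between mice in it. Because whole liver was used, fewer cells of a type and less RNA per cell cannot be told apart.

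The acute phase response is the change in plasma proteins that follows infection or injury. Interleukin-1 acts through a receptor that needs the accessory protein encoded by Il1rap, and interleukin-6 acts through gp130 and the transcription factor STAT3; together with C/EBP and NF-kB factors they raise transcription of acute phase genes in hepatocytes. SREBP-1a and SREBP-2 are transcription factors for fatty acid and cholesterol synthesis, and SCAP is the escort protein that their precursors need to be cut into the active form.

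The values are log2 signals, so a difference of 1 is 2-fold. The arrays had near-equal medians, from 4.69 to 4.77, and duplicates correlated at 0.992 to 0.995 across probe sets, though probe sets are no independent replicates. On 6 of the 10 arrays the profile was closer to an array of another group than to its own duplicate. No probe set for the deleted gene or for the transgenes was analysed here, so the groups are named by their labels. Of 20 hepatocyte markers listed, 3 were measured. Tdo2, a liver tryptophan-degrading enzyme, had group means from 7.65 to 7.80, while Serpina1a and Ahsg lay below the median signal of the tested probe sets. Called here means that limma's adjusted p (Benjamini-Hochberg, over all tested probe sets) was under 0.05 and the difference reached 1.5-fold or more.

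RefSeq's promoter table on build GRCm38.p6 held 5 of the 8 genes: Fga, Hpx, Il1rap, F10 and Stat3. The regions of Fga, Hpx and Il1rap are printed because, of these 5, their probe sets differed most between groups and between duplicates. Each run covers the 250 bases before the annotated start site. Capitals mark matches to any of 6 motifs, searched on both strands in windows from 250 bases before to 50 after the start.
Fga, chr3:83025903-83026152, + strand: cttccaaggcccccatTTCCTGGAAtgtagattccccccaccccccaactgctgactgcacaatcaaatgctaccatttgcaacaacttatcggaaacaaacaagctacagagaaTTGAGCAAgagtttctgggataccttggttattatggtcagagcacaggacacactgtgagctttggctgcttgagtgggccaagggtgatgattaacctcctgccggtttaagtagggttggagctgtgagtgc
Hpx, chr7:105600117-105600366, - strand: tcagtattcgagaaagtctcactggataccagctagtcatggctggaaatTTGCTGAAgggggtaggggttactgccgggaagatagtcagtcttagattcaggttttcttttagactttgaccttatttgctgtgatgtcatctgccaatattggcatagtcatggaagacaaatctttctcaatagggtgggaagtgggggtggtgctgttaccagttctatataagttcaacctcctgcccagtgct
Il1rap, chr16:26581455-26581704, + strand: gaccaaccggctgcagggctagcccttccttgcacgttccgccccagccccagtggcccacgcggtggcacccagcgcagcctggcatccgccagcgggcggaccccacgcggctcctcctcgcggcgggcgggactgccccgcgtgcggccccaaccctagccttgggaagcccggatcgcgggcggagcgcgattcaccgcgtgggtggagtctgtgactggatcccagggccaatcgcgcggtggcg
The Fga region held a STAT palindrome (TTCNNNGAA), the letters that STAT dimers bind, as TTCCTGGAA at -234 to -226. It also held a C/EBP core (TTGCNNAA), written above on the opposite strand as TTGAGCAA, at -135 to -128. The Hpx region held the C/EBP core as TTGCTGAA at -200 to -193. No letters of these motifs were found for Il1rap, F10 or Stat3. Of 32851 promoter windows of this length, 8.3% held the STAT palindrome and 10.8% the C/EBP core. The other motifs, which may overlap these, were the sterol regulatory element TCACNCCAC (1.24% of windows), the E-box CACGTG (7.15%), the type 2 interleukin-6 response element CTGGGAA (11.1%) and the NF-kB core GGGANTTTC (1.11%). None of these 4 was found in the windows of the 5 genes. The Il1rap window was the richest in G and C of the 5, at 72%, against 50% for Fga, 47.3% for Hpx and a median of 52.7% over all windows. A match is a description of letters, and binding was not measured.

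The probe sets of these genes reported very different signal strengths. Hpx averaged 10.59 over the 10 arrays (99.9th percentile of tested probe sets) and Fga 8.88 (98.4th). Il1rap at 133805_at averaged 6.70 (83.5th), F10 6.40 (79.4th) and Lbp 6.20 (76.1st). Below the 75th percentile, at 6.12, lay C4b at 5.94, Hp at 5.43 and Stat3 at 140431_g_at with 5.24. Haptoglobin and C4 are abundant plasma proteins made by the liver, so these signals are low for such transcripts. The mark of a dim probe set, a mean below the median of all tested, does not reach them. The second probe sets of Il1rap (171423_i_at, 2.90) and Stat3 (140432_r_at, 2.65) lay below that median, 4.74, and are the 2 marked dim. The plot of mean signals places all 10 in the distribution. Stat3 is a transcription factor with no such expectation of abundance. Levels of different probe sets do not rank their transcripts, since each has its own probes.

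**Figure D1:**
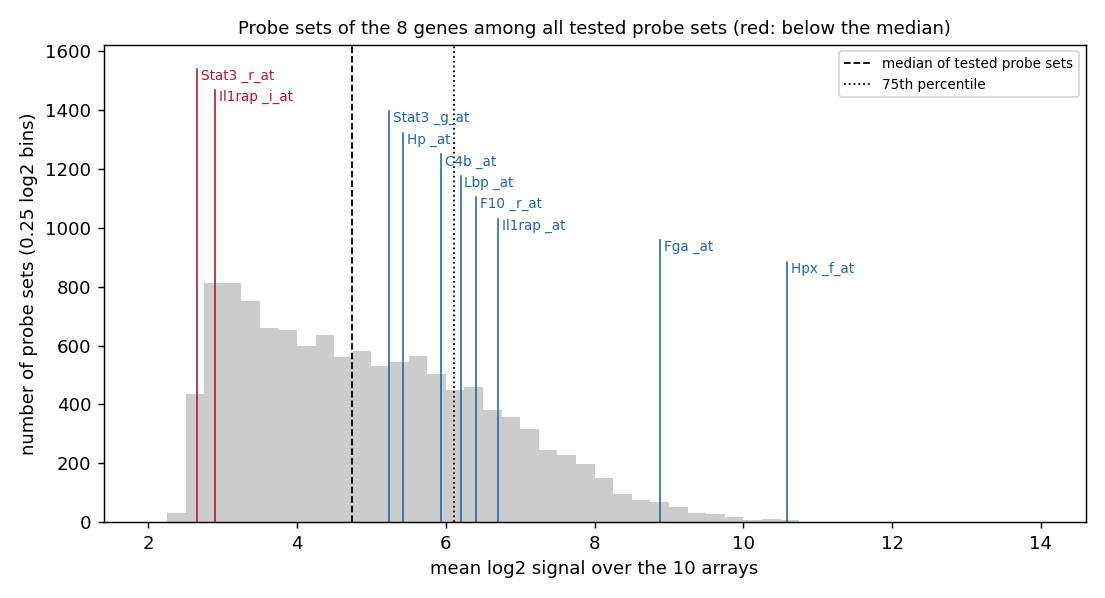
Number of tested probe sets by mean log2 signal over the 10 arrays (grey bars, bins of 0.25), with a vertical line for each of the 10 probe sets of the 8 genes; red marks those below the median (dashed). Hpx and Fga stand at the bright end at 10.59 and 8.88, the second probe sets of Il1rap and Stat3 at the dim end, and Hp, C4b and the brighter Stat3 probe set between the median and the 75th percentile (dotted).

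Across the comparisons, few of the 10 probe sets were called. With TgSREBP-2 against SREBP wild type 1 of 10 was called (Lbp, higher), where 0.118% of all tested probe sets were called. With TgSREBP-1a against SREBP wild type 1 of 10 was called (Il1rap, lower), against 1.04% of all. Between the transgenics 1 of 10 was called (Lbp, lower in TgSREBP-1a), against 0.514% of all. None was called between Scap-/- and Scap wild type, against 0.0843% of all, or between the wild types, against 0.0927% of all. At an unadjusted p under 0.05, limma gave 0 of 10 for Scap-/- against its control (3.8% of all tested) and 2 of 10 for the wild types (7.26% of all). It gave 2 of 10 each for TgSREBP-1a (9.4% of all) and TgSREBP-2 (6.34% of all) against SREBP wild type, and 4 of 10 between the transgenics (7.74% of all). These 4 were Lbp, Hpx, Fga and Il1rap, all lower in TgSREBP-1a. The medians of the 10 differences were -0.05 for TgSREBP-1a and -0.004 for TgSREBP-2 against SREBP wild type, with -0.03 and -0.008 over all tested probe sets. Between the transgenics the median was -0.17, against -0.02 over all. It was -0.001 for Scap-/- against its control and 0.04 between the wild types, against 0.0007 and -0.02 over all. The plot of differences with their intervals gives every comparison. The TgSREBP-1a and TgSREBP-2 comparisons share the same SREBP wild type arrays.

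**Figure D2:**
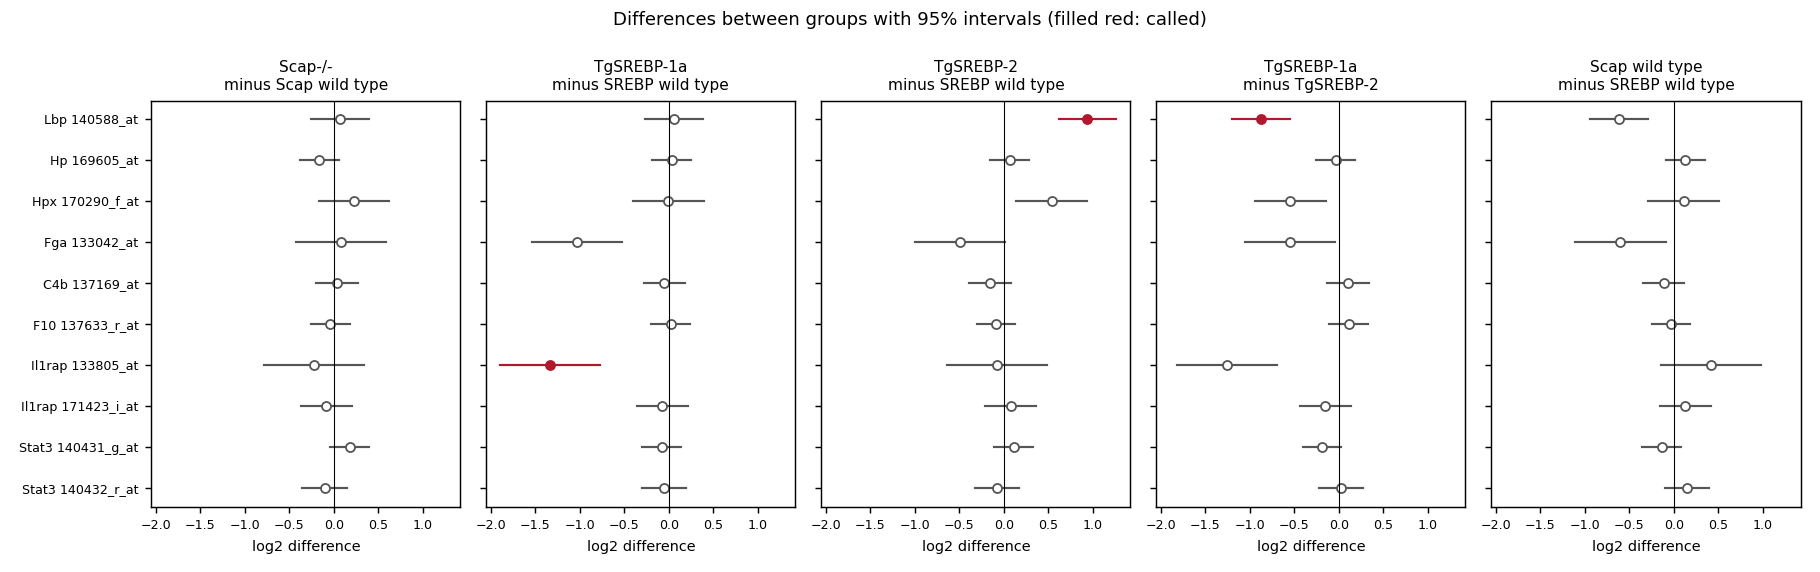
Differences in log2 signal between groups (points) with 95% confidence intervals from limma (bars) for the 10 probe sets in the 5 comparisons; filled red points were called. Lbp is the called probe set in TgSREBP-2 (0.94) and between the transgenics (-0.88), and Il1rap at 133805_at in TgSREBP-1a (-1.33).

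Lbp, which encodes the lipopolysaccharide-binding protein that hands bacterial endotoxin to CD14 and TLR4, had its highest signal in TgSREBP-2. Its log2 signal (140588_at) was 7.16 and 7.18 on the TgSREBP-2 arrays and 6.33 and 6.13 on the SREBP wild type arrays. On the TgSREBP-1a arrays it was 6.33 and 6.25. Both TgSREBP-2 arrays lay above all 8 others, while the arrays of TgSREBP-1a and SREBP wild type overlapped. TgSREBP-2 exceeded SREBP wild type by 0.94 ± 0.148 (SE, 95% interval 0.61 to 1.27), or 1.92-fold, with a limma adjusted p of 0.0421. TgSREBP-1a lay below TgSREBP-2 by 1.84-fold (log2 -0.88 ± 0.148, limma adjusted p = 0.0253). For TgSREBP-1a against SREBP wild type the difference was 0.06 (interval -0.26 to 0.39, adjusted p = 0.952).

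The Scap arrays carried the lowest Lbp signals, with 5.93 and 5.42 in Scap-/- and 5.68 and 5.54 in Scap wild type. All 4 lay below the 6 arrays of the SREBP study, and the arrays of the 2 Scap groups overlapped. Scap wild type was lower than SREBP wild type by 1.54-fold (log2 -0.62, interval -0.95 to -0.30), which did not pass (limma adjusted p = 0.333). Diet, age, poly(I:C) and study differ between these controls and cannot be told apart. Scap-/- and Scap wild type differed by 0.07 (interval -0.26 to 0.39). The Lbp call in TgSREBP-2 was close to the threshold. It was lost on leaving out any 1 of the 8 arrays other than those of Scap-/-, with a difference between 0.84 and 1.04 and an adjusted p of up to 0.427 (without SREBP wild type replicate 2). The call between the transgenics was lost without any 1 of their 4 arrays, at adjusted p of 0.174 to 0.218.

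Other genes tracked Lbp over the 10 arrays. Among 3594 probe sets at or above the median signal, the most alike were Rprml (Pearson r = 0.963), Slc3a1 (0.961) and Setd1b (0.921), and the most opposed was Chid1 (-0.874). Slc3a1, a subunit of the amino acid transporter for cystine, had a mean of 7.75 in TgSREBP-2, 6.26 in SREBP wild type, 6.09 in TgSREBP-1a, 5.61 in Scap wild type and 5.12 in Scap-/-. Like Lbp, it was highest in TgSREBP-2 and lowest in the Scap groups. These are descriptions over 10 arrays that share their groups, picked as the extremes of many.

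**Figure D3:**
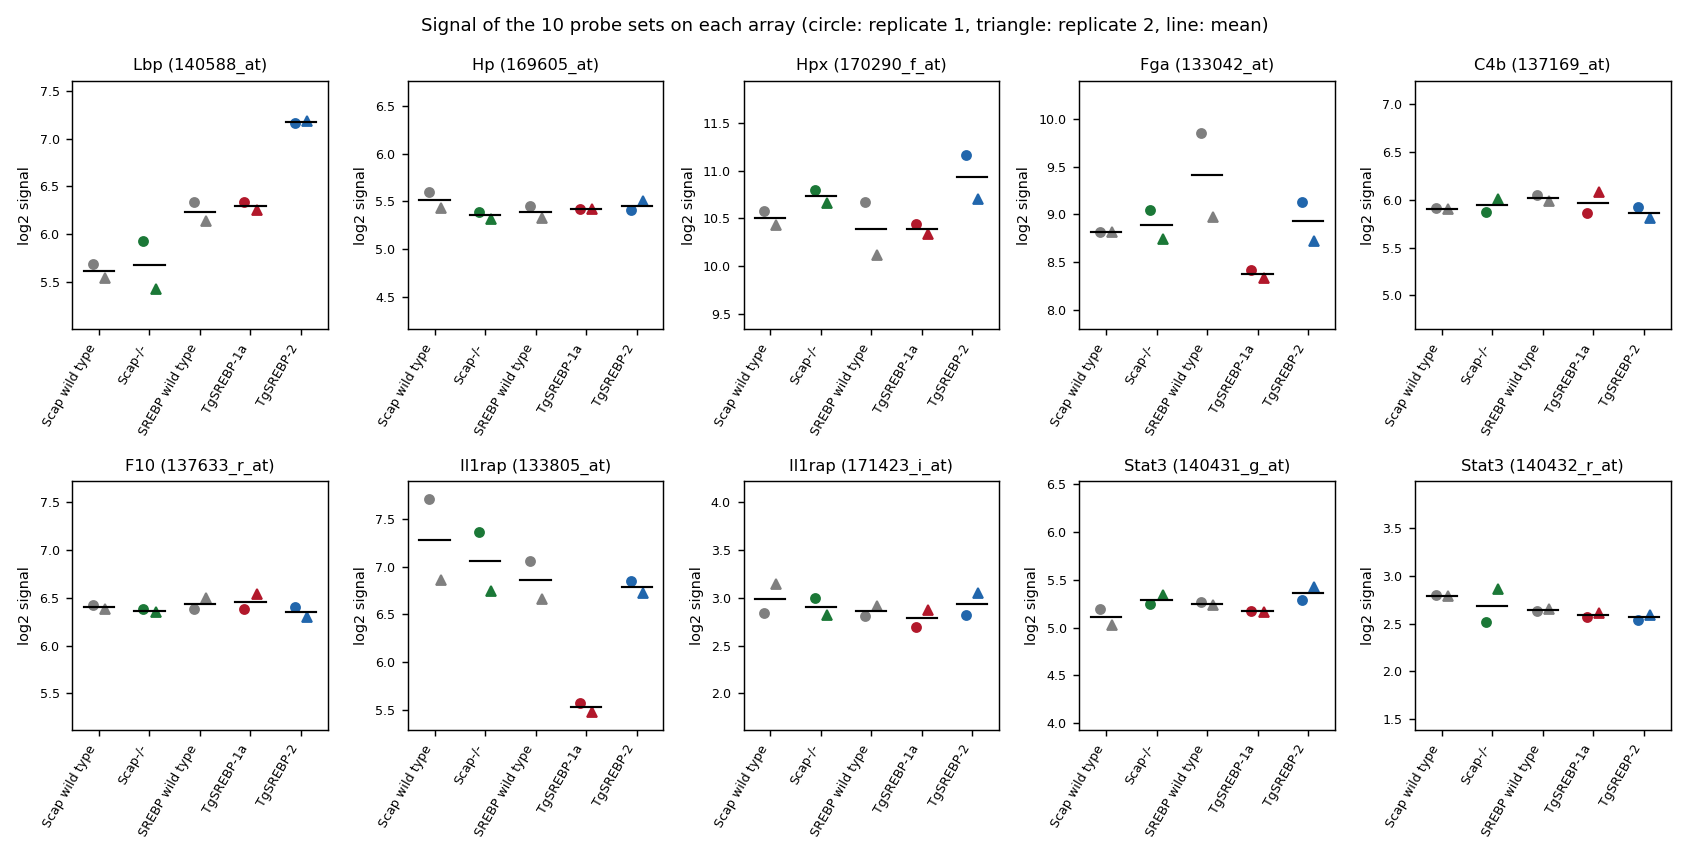
Log2 signal of the 10 probe sets on each array by group (circles replicate 1, triangles replicate 2, lines group means; all panels span the same log2 range but start at different levels). Lbp stands at 7.16 and 7.18 in TgSREBP-2 and Il1rap at 133805_at at 5.57 and 5.48 in TgSREBP-1a, both apart from the other 8 arrays, while Hp, C4b, F10 and Stat3 are nearly flat.

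Hpx encodes hemopexin, the plasma scavenger of free heme. Its signal (170290_f_at, a suffix for probes shared within a family of similar transcripts) was 11.16 and 10.70 in TgSREBP-2, 10.67 and 10.12 in SREBP wild type and 10.44 and 10.34 in TgSREBP-1a. In Scap-/- it was 10.80 and 10.66, and in Scap wild type 10.58 and 10.43. The TgSREBP-2 arrays lay above those of SREBP wild type, narrowly at the nearest arrays of each group. The difference of 0.54 (interval 0.14 to 0.94, 1.45-fold) did not pass (limma adjusted p = 0.602). TgSREBP-1a against TgSREBP-2 differed by -0.54 (adjusted p = 0.393). Hpx in Scap-/- and Scap wild type did not overlap, with a difference of 0.23 (interval -0.17 to 0.62, adjusted p = 0.999).

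Hp encodes haptoglobin, which binds free hemoglobin and is a classic acute phase protein in mice. Its probe set (169605_at) stayed between 5.32 and 5.60 on all 10 arrays. Group means ran from 5.35 in Scap-/- through 5.39 in SREBP wild type, 5.42 in TgSREBP-1a and 5.46 in TgSREBP-2 to 5.52 in Scap wild type. Neighbours in that order overlapped. The widest difference tested was -0.16 for Scap-/- against Scap wild type (interval -0.38 to 0.06, limma adjusted p = 0.999). Whether so weak a probe set follows the haptoglobin transcript was not tested.

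C4b encodes complement component C4, which the classical and lectin pathways cut. Its signal (137169_at) stayed between 5.81 and 6.08 on all arrays. It was 5.92 and 5.81 in TgSREBP-2 against 6.05 and 5.99 in SREBP wild type. These did not overlap, yet the difference of -0.15 (interval -0.39 to 0.08) was below that between duplicates of TgSREBP-1a, which read 5.86 and 6.08. In the Scap groups the mean was 5.94 without SCAP and 5.91 with it. Mouse C4b has a near-identical copy, C4a. Whether this probe set also reads C4a was not tested. No comparison passed for C4b.

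Fga encodes the alpha chain of fibrinogen, the precursor of the clot. Its mean was highest in SREBP wild type and lowest in TgSREBP-1a. Its log2 values (133042_at) were 8.42 and 8.34 in TgSREBP-1a and 9.85 and 8.98 in SREBP wild type. In TgSREBP-2 they were 9.13 and 8.72, in Scap-/- 9.05 and 8.74, and in Scap wild type 8.81 and 8.81. The TgSREBP-1a arrays were the lowest of the 10, and the other groups overlapped except the wild types. TgSREBP-1a was below SREBP wild type by 1.04 ± 0.231 (SE), or 2.05-fold, but this did not pass (limma adjusted p = 0.0665).

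The Fga comparison rests on SREBP wild type arrays that differ by 0.88, wider than 99.9% of probe sets in that group. Without its replicate 2 the log2 difference for TgSREBP-1a was -1.47 and was called (limma adjusted p = 0.00376). Without its replicate 1 it was -0.60 and did not pass. With quantile normalization it was -1.13 and was called (limma adjusted p = 0.029). This difference was also called with replicate number as a block, though the labels do not say that equal numbers share a batch. TgSREBP-2 against SREBP wild type differed by -0.49 (interval -0.997 to 0.0182, adjusted p = 0.790), and TgSREBP-1a against TgSREBP-2 by -0.55 (adjusted p = 0.575). Scap-/- against Scap wild type differed by 0.08 (interval -0.43 to 0.59).

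F10 encodes coagulation factor X, the protease that turns prothrombin into thrombin. Its signal (137633_r_at, a suffix for a probe set that broke a design rule) stayed between 6.30 and 6.54. Group means ran from 6.35 in TgSREBP-2 to 6.46 in TgSREBP-1a. The difference between these groups, 0.11 (interval -0.11 to 0.32), was smaller than the gap of 0.16 between the TgSREBP-1a duplicates. Against SREBP wild type, TgSREBP-1a differed by 0.02 and TgSREBP-2 by -0.09. Neither passed.

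Il1rap encodes the accessory chain without which the interleukin-1 receptor does not signal, and which interleukin-33 and interleukin-36 receptors also use. It was lowest in TgSREBP-1a. At 133805_at the signal was 5.57 and 5.48 in TgSREBP-1a, 7.06 and 6.66 in SREBP wild type and 6.85 and 6.72 in TgSREBP-2. In Scap-/- it was 7.37 and 6.74, and in Scap wild type 7.71 and 6.86. Both TgSREBP-1a arrays lay below the other 8, and the remaining groups overlapped with each other except TgSREBP-2 and Scap wild type.

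For this probe set, Il1rap fell in TgSREBP-1a by 1.33 ± 0.255 on the log2 scale (SE, interval -1.89 to -0.77), or 2.52-fold against SREBP wild type, with a limma adjusted p of 0.0301. TgSREBP-1a against TgSREBP-2 differed by -1.26 (interval -1.82 to -0.70, 2.39-fold), which did not pass over all 10 arrays (adjusted p = 0.0691). That comparison passed in the fit of the 6 SREBP arrays alone (adjusted p = 0.00244). TgSREBP-2 against SREBP wild type differed by -0.08 (interval -0.64 to 0.48) and Scap-/- against Scap wild type by -0.23 (interval -0.79 to 0.33). The call in TgSREBP-1a was lost without any 1 of the 6 arrays of the SREBP study, at differences of -1.53 to -1.13 and adjusted p of 0.058 to 0.212.

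The second Il1rap probe set (171423_i_at, dim) did not show this fall. It read 2.70 and 2.88 in TgSREBP-1a and 2.81 and 2.92 in SREBP wild type, which overlapped, with a difference of -0.08 (interval -0.36 to 0.21, limma adjusted p = 0.931). It stayed between 2.70 and 3.14 on all 10 arrays, and its mean of 2.90 lies at the 7.7th percentile of tested probe sets. Whether so weak a probe set can register a fall, and why the 2 probe sets differ, was not tested. Il1rap at 133805_at was followed over the 10 arrays most closely by Add2 (r = 0.951), Nat8 (0.949) and Kirrel3 (0.942), with Mapk8ip1 the most opposed (-0.935). Nat8, an acetyltransferase of liver and kidney, had a mean of 7.88 in TgSREBP-1a, 9.22 in SREBP wild type, 8.92 in TgSREBP-2, 9.54 in Scap-/- and 9.87 in Scap wild type.

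Stat3 encodes the transcription factor through which interleukin-6 drives acute phase genes. At 140431_g_at it read 5.29 and 5.43 in TgSREBP-2, 5.18 and 5.16 in TgSREBP-1a and 5.26 and 5.24 in SREBP wild type. In Scap-/- it was 5.24 and 5.34, and in Scap wild type 5.19 and 5.03. The groups did not overlap in any of the 5 comparisons. All differences were nonetheless small, from -0.19 between the transgenics (interval -0.41 to 0.03, limma adjusted p = 0.732) to 0.18 for Scap-/- against Scap wild type (interval -0.04 to 0.40, adjusted p = 0.999). The dim 140432_r_at stayed between 2.52 and 2.86, and none of its comparisons passed.

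Groups that do not overlap were common at 2 arrays each. For Scap-/- against Scap wild type 3 of the 10 probe sets did not overlap, against 29.7% of all tested. It was 4 of 10 for TgSREBP-1a (39.4% of all) and 5 of 10 for TgSREBP-2 (35% of all) against SREBP wild type. Between the transgenics it was 5 of 10 (37% of all), and between the wild types 5 of 10 (37.5% of all). These shares lie near the background and say nothing particular of these genes.

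Among the 10 probe sets, the duplicates of a pool differed most for Il1rap, Fga, Hpx and Lbp. The residual spread of Il1rap at 133805_at stood at the 99.1st percentile of all tested probe sets, that of Fga at the 98.5th, Hpx at the 94.9th and Lbp at the 85.6th. Replicate 1 read higher than replicate 2 in all 5 groups for Hpx, by 0.10 to 0.56, and for Il1rap at 133805_at, by 0.10 to 0.85. It did so in 4 of 5 groups for Lbp, Hp and Fga. Of all tested probe sets, 6.15% read higher on replicate 1 in 5 of 5 groups. The plot of duplicate differences shows them by group.

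The 18S ribosomal RNA control probe sets, 3 in number, moved with the replicate number in the other direction. Their mean signal was higher on replicate 2 in 5 of 5 groups, from 6.52 to 6.65 in Scap wild type and from 6.47 to 8.70 in SREBP wild type. With that signal as a covariate, added after seeing the data, the Fga difference in TgSREBP-1a was -1.15 and was called (limma adjusted p = 0.00231). Its part in the duplicate differences was not tested further.

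**Figure D4:**
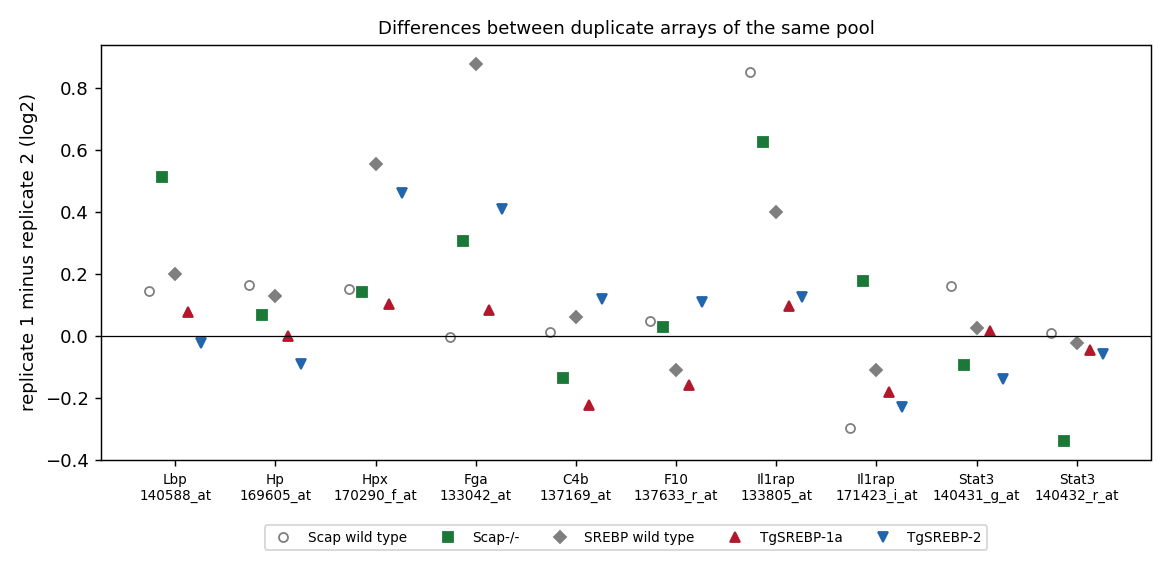
Difference in log2 signal between replicate 1 and replicate 2 of the same pool for each of the 10 probe sets; 1 symbol per group. Hpx and Il1rap at 133805_at lie above 0 in all 5 groups, and Fga reaches 0.88 in SREBP wild type.

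Related genes were taken from 5 pathway lists, of which the array measured few. Of 32 acute phase proteins that rise, 2 were measured, Serpina1a and Il1rn, both dim and neither called in any comparison. At an unadjusted p under 0.05, limma gave 1 of the 2 in TgSREBP-1a (9.4% of all tested probe sets) and 1 in TgSREBP-2 (6.34%). Each time it was Serpina1a, at -0.34 and -0.27. Its probe set averaged 3.43, below the median of 4.74, and whether it follows the Serpina1a transcript was not tested. Of 24 plasma proteins listed as falling or holding steady in inflammation, 6 were measured. In TgSREBP-1a 2 of these 6 were called lower, 4 were not called and none was higher, against 1.04% of all tested probe sets called. The median was -0.04 against -0.03 over all probe sets. This list was drawn up with earlier results of these data known, so the count is a description. In TgSREBP-2 against SREBP wild type and in Scap-/- against Scap wild type none of the 6 was called, with 4 and 1 at an unadjusted limma p under 0.05, where all tested probe sets gave 6.34% and 3.8%.

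The 2 lower genes of this list in TgSREBP-1a were serpins, and whether they fall in inflammation was not tested. Serpina11, a liver-secreted serpin, read 6.97 and 7.15 in TgSREBP-1a, 8.70 and 8.43 in SREBP wild type and 8.19 and 8.09 in TgSREBP-2. No TgSREBP-1a array reached the other groups. It fell by 1.51 ± 0.124 (SE) on the log2 scale against SREBP wild type (2.84-fold, limma adjusted p = 0.000107) and by 1.08 against TgSREBP-2 (adjusted p = 0.00154). Serpina12 (vaspin, probe set of the family suffix) fell by 0.66 against SREBP wild type (limma adjusted p = 0.0469). In TgSREBP-2 it read 7.73 and 7.95 against 8.69 and 8.48, a difference of -0.75 that did not pass (adjusted p = 0.110), although 5 of 21 alternatives called it (lowest adjusted p 0.0122). The transgenics differed by 0.08 for Serpina12 (adjusted p = 0.961). In Scap wild type it was 10.14 and 9.97, above SREBP wild type by 1.47 (limma adjusted p = 0.00174). As for Lbp, diet, age, poly(I:C) and study differ between these controls and cannot be told apart. The Serpina12 call in TgSREBP-1a was lost in 9 of 21 alternatives, where the adjusted p reached 0.280. Apoh and Afm, the other bright ones, differed by 0.28 and -0.06 in TgSREBP-1a and were not called.

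Complement had 5 of 45 listed genes measured besides C4b, and none was called in any comparison. At an unadjusted limma p under 0.05 there were 2 each in TgSREBP-1a and TgSREBP-2 against SREBP wild type and 0 in Scap-/-, where all tested probe sets gave 9.4%, 6.34% and 3.8%. Colec11, a lectin that starts the lectin pathway, read 7.61 and 7.41 in TgSREBP-1a against 6.56 and 5.70 in SREBP wild type. These did not overlap, and the difference of 1.38 did not pass (limma adjusted p = 0.0722). It was called in 7 of 21 alternatives (lowest adjusted p 0.000377), among them the fit of the SREBP arrays alone (0.0207), and ranged from 0.95 to 1.81 when 1 array was left out. Colec11 is also on the stellate cell list. The bright Masp1, a protease of the same pathway, differed by -0.16 in TgSREBP-1a at its brighter probe set, C2 by -0.33 and C1qc by 0.17.

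Coagulation and fibrinolysis had 10 of 46 listed genes measured besides Fga and F10, and none was called. At an unadjusted limma p under 0.05 there were 2 in TgSREBP-1a and 0 in both TgSREBP-2 and Scap-/-, each against its control, beside the same shares over all. In TgSREBP-1a 4 of the 10 had a difference above 0, with a median of -0.19, against -0.03 over all tested probe sets. In TgSREBP-2 it was 5 of 10, with a median of -0.03, against -0.008. Plg, which encodes plasminogen, differed by -0.38 in TgSREBP-1a and 0.22 in TgSREBP-2. Serpinf2, the inhibitor of plasmin, differed by -0.19 and 0.03. Proz and Lman1, the latter a cargo receptor for clotting factors, differed by 0.07 and -0.24 in TgSREBP-1a. None of these passed.

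Of the interleukin-1, interleukin-6 and endotoxin signalling list 10 of 72 genes were measured, 5 of them dim, and none was called. At an unadjusted limma p under 0.05 there were 4 in TgSREBP-1a (9.4% of all tested probe sets), 1 in TgSREBP-2 (6.34%) and 0 in Scap-/- (3.8%), each against its control. The medians were 0.17 in TgSREBP-1a and 0.16 in TgSREBP-2 against SREBP wild type, with -0.03 and -0.008 over all tested probe sets. Nfkbia, an inhibitor and target of NF-kB, differed by 0.22 and 0.37 there, and Rela, a subunit of NF-kB, by -0.07 and -0.03. Il6st, which encodes gp130, read 7.03 and 6.43 in SREBP wild type and 5.90 and 5.29 in Scap wild type. These did not overlap, with a difference of -1.13 that was not called (limma adjusted p = 0.271). Here too diet, age, poly(I:C) and study differ between the controls. Pias2 differed by -0.28 in TgSREBP-1a.

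**Figure D5:**
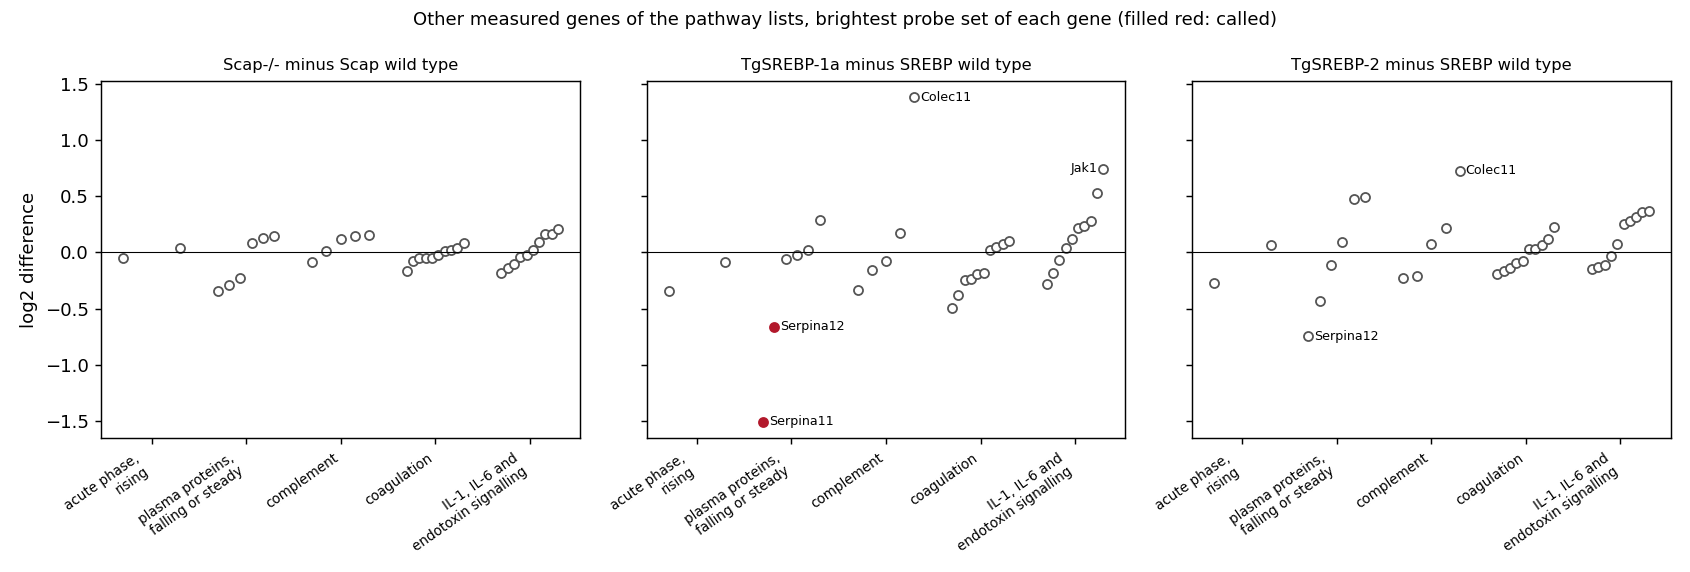
Differences in log2 signal of the measured genes of the 5 pathway lists (brightest probe set of each gene; the 8 genes themselves are left out) in 3 comparisons; filled red points were called. Serpina11 (-1.51) and Serpina12 (-0.66) are the called genes, both in TgSREBP-1a, and no gene was called in the Scap-/- comparison.

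Markers of other cells moved in the same groups. The following marker genes were named after their values were seen. Of 17 Kupffer cell and macrophage markers 2 were measured, and both were higher in TgSREBP-1a than in SREBP wild type: Vsig4 by 1.14 and Laptm5 by 1.05 (limma adjusted p = 0.0185 and 0.00538). The mean of the 2 lay at 9.003 to 9.08 in TgSREBP-1a, 8.48 to 8.69 in TgSREBP-2 and 7.73 to 8.17 in SREBP wild type. In the Scap study the marker mean lay at 8.17 to 8.60 in Scap-/- and 8.29 to 8.47 in Scap wild type. Il1rap at 133805_at had its lowest mean in TgSREBP-1a, where these 2 markers were highest. Its highest mean was in Scap wild type (7.28 against 6.86 in SREBP wild type). There the marker mean also lay above SREBP wild type. In TgSREBP-2, Vsig4 and Laptm5 differed by 0.74 and 0.54, neither called, while Il1rap differed by -0.08. Of 10 bile duct cell markers 2 were measured, and Epcam was lower in TgSREBP-1a at its brightest probe set (log2 -0.63, limma adjusted p = 0.00538), while its other bright one differed by 0.05. In TgSREBP-2 the brightest Epcam probe set differed by -0.54 (adjusted p = 0.0587). Sox9, the other gene measured, differed by 0.24 in TgSREBP-1a and 0.18 in TgSREBP-2 at its brightest probe set. Its next brightest differed by -0.34 and -0.47, and none of these Sox9 differences was called. The mean of that list lay at 7.61 on both TgSREBP-1a arrays, 7.62 to 7.63 in TgSREBP-2 and 7.75 to 7.86 in SREBP wild type. Of 20 pancreatic acinar markers 7 were measured, 4 of them dim. Their mean lay at 3.98 to 4.03 in TgSREBP-1a, 5.42 to 5.60 in TgSREBP-2 and 4.89 to 5.17 in SREBP wild type, with 3 called lower in TgSREBP-1a and 2 called higher in TgSREBP-2. In the Scap study it lay at 3.95 to 4.07 in Scap-/- and 4.64 to 4.75 in Scap wild type, with 2 called lower. Of all tested probe sets 1.04% were called in TgSREBP-1a, 0.118% in TgSREBP-2 and 0.0843% in Scap-/-, each against its control. None of the 15 measured endothelial, stellate cell, neutrophil, lymphocyte, erythroid and hepatocyte markers was called in any comparison. The unadjusted limma p against the control was under 0.05 for 2 in TgSREBP-1a, 3 in TgSREBP-2 and 0 in Scap-/-. Over all tested probe sets these shares were 9.4%, 6.34% and 3.8%. The part of these cell types in the results for Lbp, Il1rap and Fga was not tested.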

How the data were processed

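Log2 signals per probe set, deposited by the authors and made with RMA per the submitters' processing notes (version not given), were used as deposited. They run from 2.17 to 13.34. The series' design text names Microarray Suite 5.0 instead, and which of its settings bear on these values is not given in the sources used here. Of 11934 probe sets, 66 controls were left out and 11868 tested. Arrays give no counts, and their number (10, as 2 hybridisations of each of 5 pools) limits the precision. A single limma 3.58.1 fit in R 4.3.3 held all 10 arrays and 5 groups (5 residual and 6.26 prior degrees of freedom), with two-sided tests and Benjamini-Hochberg adjustment within each of 5 comparisons. It was tested on simulated data.

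The 8 genes and the gene lists were chosen with earlier results of these data known. Named besides them are pathway list genes called in any comparison, the 4 brightest of each list, and the 3 genes most like each called gene over the arrays with the 1 most opposed. A probe set was marked dim below the median mean signal. The alternatives were quantile, median and cyclic loess normalization, a filter on dim probe sets, limma-trend, other fold floors, arrays of 1 study alone, a replicate block, an 18S covariate, and leaving out each array. Sequences are from RefSeq, GRCm38.p6.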

Additional observations from a re-analysis of the deposited data

Results flagged for a closer look

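The effects of the transgenes differed from each other for some genes, tested as TgSREBP-1a minus TgSREBP-2 in the limma fit, which equals the difference of their effects against the shared SREBP wild type. For Lbp it was -0.88 on the log2 scale (limma adjusted p = 0.0253), and for Serpina11 -1.08 (limma adjusted p = 0.00154). In each case both arrays of TgSREBP-1a lay below both of TgSREBP-2. Of the 7 pancreatic acinar markers measured 3 were called too, at -5.18 for Cpa1, -2.56 for Gp2 and -1.78 for the dim Cuzd1. Of all tested probe sets 0.514% were called in this comparison. The other 4 markers were not called, and 1 of the 7 had a difference above 0. Among these 4, Cela2a differed by -0.57 (1.49-fold, limma adjusted p = 0.0234) and missed only the 1.5-fold floor. The part of the acinar transcripts in the Lbp and Serpina11 differences was not tested.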

How the results depend on the processing

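No difference of the 8 genes reversed as a call. The number of their probe sets called in TgSREBP-1a against SREBP wild type rose from 1 (Il1rap) to 2 (Il1rap and Fga) with quantile normalization, with the replicate block, with the 18S covariate and with the crossed pairing. It was 0 to 1 when arrays were left out. In TgSREBP-2 it fell from 1 (Lbp) to 0 with a 2-fold floor and was 0 to 1 when arrays were left out. Between the transgenics it fell from 1 (Lbp) to 0 with a 2-fold floor, rose to 2 (Lbp and Il1rap) with arrays of the same study, the replicate block, the 18S covariate and the crossed pairing, and was 0 to 2 when arrays were left out. Why the calls moved was not tested, beyond the array count itself when arrays were left out. The other 2 comparisons stayed at 0 in every alternative run. With the 75th percentile as threshold, 5 probe sets were marked instead of 2. Replicate numbers mark repeat hybridisations of a group's own pool, and the labels do not say that equal numbers share a day or batch. Deviations of same-numbered arrays correlated above 0.2 in 7 of 10 pairs of groups and below -0.1 in the other 3, all with TgSREBP-2 (from -0.17 to 0.33), so the fit without the block was kept. With the replicate block the Fga difference in TgSREBP-1a was called (limma adjusted p = 0.00559), as was Il1rap between the transgenics (0.00191). With the replicate block, all probe sets called numbered 19, 186, 37, 96 and 36, against 10, 123, 14, 61 and 11 without it, in the order of the Scap-/-, TgSREBP-1a, TgSREBP-2, transgenic and wild type comparisons. With the numbers of TgSREBP-2 crossed, chosen after seeing the data, TgSREBP-1a had 165 called. No normalization tried moved the median of all probe sets by more than 0.03. Signal limits the second probe sets of Il1rap and Stat3, and low signal the reading of Hp and C4b.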
